A study of Mus musculus with 4 samples.

Results

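Of the 12477 merged regions of open chromatin in this series, 2036 lay on an autosome, inside a gene and more than 1000 bp from the nearest gene start, and these intragenic regions are described here. Each was placed by the deposited gene table, in which every region is linked to 1 or more genes with its distance to their starts. The linked gene with the nearest start was taken, and the region was kept where that distance was over 1000 bp and the table gave its position as in the gene. The 7618 autosomal regions within 1000 bp of the nearest start, called start regions below, served as the comparison.

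The assay was ATAC-seq on subcutaneous white fat (WAT) of wild-type (WT) mice; the transposase Tn5 inserts adapters where DNA is open. There were 4 libraries, 2 from females and 2 from males, and sex is the comparison that the labels imply. The frozen fat was ground, 100000 nuclei were used for the transposase reaction, and 10 PCR cycles followed. Ages are not given in the labels used here, and no label ties the libraries of 1 sex to different animals. The p-values therefore measure the spread between these samples, which may be technical. Whole fat holds adipocytes together with progenitors, vessels, immune cells and, in females, mammary epithelium. In such bulk tissue fewer cells of a type and less open chromatin per cell cannot be told apart.

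The libraries differed in how many merged regions had a peak of their own: 9972 and 7835 in female 1 and female 2, and 5371 and 4041 in male 1 and male 2. The median difference between the sexes over all 6785 regions with a known height was -0.63 in log2(height + 9), with males lower. That is a fold of 1.55 in height plus 9, and not in height itself. Of 37 adipocyte identity genes, 29 had a row in the gene table, among them Pparg, Cebpa, Lipe, Cidec and Pnpla2, while Adipoq, Fabp4, Plin1 and Lep had none.

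Open regions inside genes are of several kinds. Some are enhancers in introns, which bind transcription factors and act on the host gene or on a neighbour, and some are alternative promoters, from which a shorter transcript of the same gene starts. Promoters of widely used genes are commonly rich in CpG and open in most cell types, whereas enhancers are more often open in a few cell types only. In fat, PPARγ and C/EBP factors are known to bind many intronic sites of adipocyte genes.

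A start window, as used here, is the stretch from 250 bases before to 50 bases after a transcript start in RefSeq (GRCm38.p6, the assembly of mm10). Of the 2036 intragenic regions, 224 (11.0%) overlapped such a window, 198 of them that of a linked gene and 26 that of another gene only. The gene table counts distance from the outermost listed start of a gene, so a region on an inner start is intragenic by the rule. The bases of 6 inner starts of genes of fat metabolism and its clock are printed below, because they show what kind of DNA lay open there. Each run covers the bases of the open region that lie upstream of the inner start, up to 250, so those of Lipe and Tef leave out the far end of the region. The runs read 5′ to 3′ on the gene's strand, and whether the bases are exonic in a longer transcript was not used here. Capitals mark promoter motifs. The GC box, bound by SP and KLF factors, has the letters GGGCGG. The CCAAT box, bound by NF-Y, has the letters in its name. The E-box of clock and MYC family factors has CACGTG, and the ETS letters searched were CCGGAAG. Each motif was searched on both strands, so its reverse complement is capitalised too.
Lipe start, chr7:25390113-25390362, minus strand: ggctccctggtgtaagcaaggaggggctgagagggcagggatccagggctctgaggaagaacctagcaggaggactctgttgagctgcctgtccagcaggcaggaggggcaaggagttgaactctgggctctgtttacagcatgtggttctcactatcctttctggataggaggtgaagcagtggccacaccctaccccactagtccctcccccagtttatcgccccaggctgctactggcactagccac
Srebf1 start, chr11:60210472-60210584, minus strand: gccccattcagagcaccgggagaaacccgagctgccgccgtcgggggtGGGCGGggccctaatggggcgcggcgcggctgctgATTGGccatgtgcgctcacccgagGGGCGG
Insig2 start, chr1:121328025-121328123, minus strand: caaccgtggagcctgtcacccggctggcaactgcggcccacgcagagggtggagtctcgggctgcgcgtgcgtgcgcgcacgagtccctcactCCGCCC
Adipor2 start, chr6:119388735-119388923, minus strand: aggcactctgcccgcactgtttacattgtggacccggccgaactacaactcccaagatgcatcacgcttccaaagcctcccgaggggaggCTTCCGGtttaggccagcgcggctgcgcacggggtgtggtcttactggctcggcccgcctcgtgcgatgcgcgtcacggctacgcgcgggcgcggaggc
Hsd11b1 start, chr1:193242361-193242600, minus strand: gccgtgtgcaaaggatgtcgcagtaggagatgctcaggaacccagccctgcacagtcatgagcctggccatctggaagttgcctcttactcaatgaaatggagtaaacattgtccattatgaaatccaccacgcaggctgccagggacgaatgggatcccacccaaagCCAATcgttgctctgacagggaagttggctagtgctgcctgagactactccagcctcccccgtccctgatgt
Tef start, chr15:81811164-81811413, plus strand: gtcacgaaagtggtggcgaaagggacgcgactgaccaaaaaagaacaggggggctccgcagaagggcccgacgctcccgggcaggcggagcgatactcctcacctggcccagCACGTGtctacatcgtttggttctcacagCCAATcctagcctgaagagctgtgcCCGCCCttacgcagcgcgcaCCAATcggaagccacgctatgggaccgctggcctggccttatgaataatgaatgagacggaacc

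These 6 sequences were not alike in base composition. Those of Srebf1, Insig2 and Adipor2 held 13, 12 and 22 CpG in 113, 99 and 189 bases, and their GC contents were 74.3%, 72.7% and 66.7%. That of Lipe held 1 CpG in 250 bases, and that of Hsd11b1 held 6 in 240 bases. Letters of the searched motifs were found in 5 of the 6, and none of them in the 250 bases printed for Lipe.

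Lipe encodes hormone-sensitive lipase, an enzyme of triglyceride breakdown whose longer testis form starts at an exon far upstream. Its open region (chr7:25390085-25390379) lay 5747 bp inside the listed gene start. It had a peak of height 60 in female 1, 53.4 in female 2 and 27.6 in male 1, and none in male 2. Heights here are the authors' tag coverage at the summit, scaled per library. Srebf1, the lipogenic transcription factor known for the alternative first exons of its SREBP-1a and SREBP-1c forms, had its region 10076 bp inside the gene (chr11:60210457-60210584). A peak was called there in female 2 only. The heights were 38 and 34.5 in female 1 and female 2 and 30.4 and 8.81 in male 1 and male 2. Male 1 thus lay near the females and male 2 apart from all 3. Insig2, whose product holds back SREBP processing in the endoplasmic reticulum, had 27, 35.3, 24.7 and 11.7 in the same order of libraries at chr1:121327756-121328123.

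Adipor2 encodes an adiponectin receptor. Its region, 28651 bp inside the gene, had summits of 64, 43.6 and 38.2 in female 1, female 2 and male 1, and no peak in male 2. Hsd11b1 encodes the enzyme that regenerates active glucocorticoid in fat, and its region 21485 bp inside the gene had heights of 31 and 27.1 in the females and 23.3 and 8.08 in the males. Tef, a PAR bZIP factor of clock output, had a peak in every library, with summits of 63, 62.5, 39.6 and 26.4. In each of these 6 genes male 2 was the lowest library or had no peak. None of the 3 with a known height in every library (Srebf1, Insig2 and Hsd11b1) passed the limma test between the sexes (adjusted p = 0.186, 0.261 and 0.204). The insulin-responsive Rab regulator Tbc1d1, the hormone-signal transducers Stat5a and Stat5b, the glucocorticoid-induced kinase Sgk1, the fatty acid transporter Slc27a1 and the DNA methyltransferase Dnmt1 also had an open region on an inner RefSeq start.

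Regions on a RefSeq start were called in more libraries than the other intragenic regions. Of the 1313 intragenic regions with a peak in a single library, 5.71% lay on a RefSeq start. The share was 10.6% of the 433 with peaks in 2 libraries, 30.3% of the 208 with peaks in 3, and 48.8%, or 40 of 82, of those with peaks in all 4. For scale, 74.0% of start regions lay on a RefSeq start window. The windows come from a table that is not complete: 1237 of the 1579 genes nearest to an intragenic region had an entry by gene ID, so a region on none of them may still lie on a start.

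**Figure D1:**
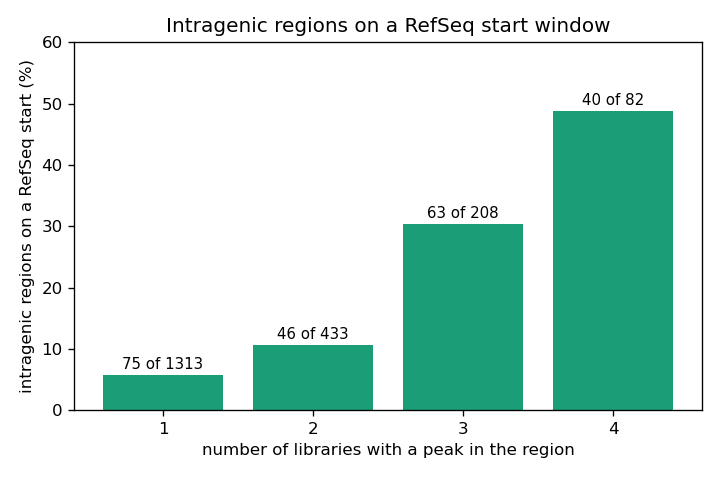
Share of intragenic regions that overlap a RefSeq start window (vertical axis, percent) by the number of libraries with a peak in the region (horizontal axis), with the counts above the bars. The share is 5.71% for regions with a peak in 1 library and 48.8% for regions with peaks in all 4.

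The heights were also larger there in every library. Among intragenic regions with known heights, the 92 on a RefSeq start had medians of 40, 32.1, 25.4 and 14.3 in female 1, female 2, male 1 and male 2, and the 642 others had 25, 19.7, 14.1 and 8.08. The difference averaged 11.2 ± 3.67 (SD, n = 4 libraries) and was positive in 4 of 4 (exact sign permutation test over libraries, two-sided, p = 0.125, the smallest it can give). Start regions had medians of 41, 31.2, 26.2 and 15.4, and the quartile ranges of intragenic regions on a RefSeq start overlapped theirs in each library. The ranges of the 642 others reached them too, with upper quartiles of 32, 27.1, 19.1 and 11.7. The lower quartiles of start regions were 29, 23, 19.1 and 11, and the medians of the 642 lay below these in each library. The peak shares followed the same order: 83.9%, 70.1%, 48.7% and 27.7% of the 224 regions on a RefSeq start had a peak, against 70.0%, 46.5%, 16.9% and 10.9% of the 1812 others. The median width was 195 bp on a RefSeq start and 135 bp elsewhere.

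**Figure D2:**
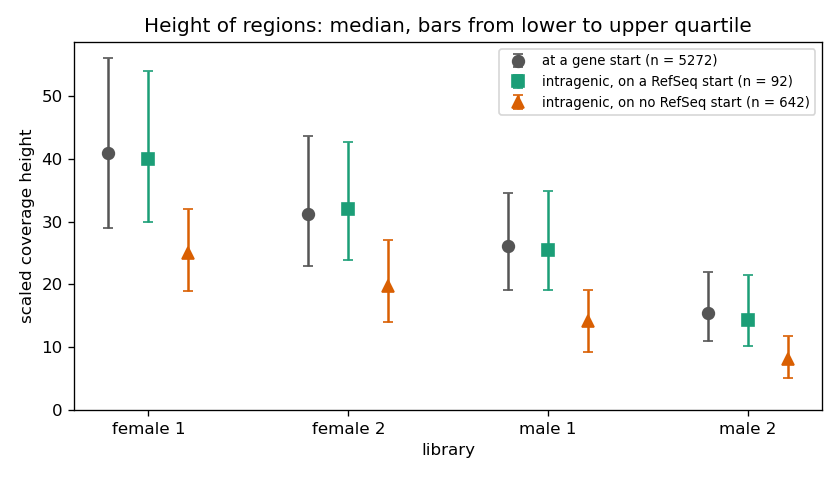
Scaled coverage height (vertical axis) of start regions, intragenic regions on a RefSeq start and intragenic regions on none, in each library (horizontal axis). Points are medians and bars run from the lower to the upper quartile over regions with a height known in all 4 libraries. In each library the median of intragenic regions on no RefSeq start is the lowest of the 3, at 25, 19.7, 14.1 and 8.08.

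The start windows under intragenic regions had the composition of promoters with many CpG, with some differences from those under start regions. The 222 windows on intragenic regions had a median GC content of 61.8% and 18 CpG in 300 bases. The 5565 windows on start regions had 63.0% and 24 CpG, and all 32851 RefSeq windows had 52.7% and 7. A GC box was present in 63.1% of windows on intragenic regions, 74.4% of those on start regions and 35.7% of all windows, and the ETS letters in 9.46%, 22.8% and 8.86%. The AP-1 letters TGACTCA, on either strand, were found in 18 windows (8.11%) on intragenic regions, against 2.62% on start regions and 5.20% of all windows. The TATA box letters TATAAA, also on either strand, were found in 4.95%, 4.96% and 13.6% of them. These shares describe letters in fixed windows and were not tested.

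Among the 82 regions with peaks in all 4 libraries, 40 lay on a RefSeq start and 42 did not. The first group held Ing1, a chromatin reader of the ING family, with summits of 128, 76.4, 55.1 and 61.7 in female 1, female 2, male 1 and male 2 (chr8:11557782-11558475). Dnmt1, which starts at separate first exons in oocytes and somatic cells, had 52, 46.9, 34.6 and 33, and Sgk1 had 51, 46, 31.1 and 25. Hnrnpf, an RNA-binding splicing factor, had 2 such regions, 6412 and 16588 bp inside the gene. The 42 on no RefSeq start held several regions of genes with known roles in fat. Nfia, a transcription factor that acts with PPARγ in brown and white adipocytes, had one 190377 bp from its start, with summits of 90, 45.2, 40.3 and 14.7 (chr4:97772189-97772432). Rxra, the obligate partner of PPARγ, had one 81231 bp from its start, with 45, 27.1, 22.6 and 14.7. Ncoa2, a nuclear receptor coactivator, had 63, 57.5, 45.9 and 37.4. Others lay in Bcat2 and Idh1, enzymes of branched-chain amino acid and isocitrate metabolism, and in Agpat3, an enzyme of phospholipid synthesis. In 60 of the 82 the tallest summit was that of female 1, in 17 that of female 2, in 2 that of male 1 and in 3 that of male 2.

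Among the 734 intragenic regions whose height could be worked out in all 4 libraries, the tallest by mean height were in Iffo2, Add3, Zbtb7a, Aktip, Dcun1d4, Arfip1, Fbxo46 and Uggt2, and 5 of these 8 lay on a RefSeq start. Iffo2, an intermediate filament family gene, had 110, 76.4, 63.6 and 30.1 in female 1, female 2, male 1 and male 2. Add3, which encodes the cytoskeletal protein γ-adducin, had 91, 74, 54.4 and 31.6. In both, female 1 was highest and male 2 lowest, and this held for the other named regions of that set except Arfip1. Arfip1, an ARF-binding protein gene, had 58, 52.6 and 36.8 in the first 3 libraries and 78.6 in male 2, the only one of the 8 in which male 2 was highest.

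Intragenic regions were spread over long genes. The 2036 regions fell in 1579 genes, of which 1247 held 1, 246 held 2 and 86 held 3 or more, and 253 regions were linked to more than 1 gene. The distance to the nearest start had a median of 28104.5 bp, with quartiles of 9496.5 and 79266.5 bp. The genes nearest to them had a median length of 66079 bp, against 18836 bp for all genes of the table. The rule itself favours long genes, since only a gene that reaches over 1000 bp from its start can hold such a region. With each gene cut into 5 equal lengths from its start to its end, these held 421, 484, 423, 360 and 346 regions, and 2 regions lay outside the listed span. Regions within 1000 bp of a start are left out by the rule, which lowers the count of the first length. The regions had a median width of 141 bp, against 245 bp for start regions. The region in Tanc1 was the widest, with 906 bp, and that in Ing1 had 694 bp. In all, 877 of the 2036 (43.1%) lay in a gene that also had a start region.

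Nfia held the most regions, 9, and all lay between 169641 and 522409 bp from its start. Their mean height, as the gene table gives it, was 32.2 and 23.7 in the females and 17.4 and 13.1 in the males. A single one of the 9 had a peak in all 4 libraries, and 5 had a peak in 1 library only. Maml3, a Notch coactivator gene, held 6, with mean heights of 37.7, 31.5, 19.1 and 12.7, and none of the 6 had a peak in all 4 libraries. Gse1, Itpr1, Rad51b, Cuedc1, Slit3, Pde4d and Rora held 5 each. Pde4d encodes a phosphodiesterase of cyclic AMP and Rora a nuclear receptor of the clock. Nfia, Maml3, Cuedc1, Pde4d and Rora had no start region in these data, and every region linked to them was intragenic. In Pde4d all 5 regions had a peak in female 1, and the peaks in the other libraries were 1, 0 and 1. One intragenic region of Gse1 overlapped the microRNA hairpin Mir7687 by 6 bp, and one of Ssh3 covered the 61 bp of the hairpin Mir6985.

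The farthest region lay in Magi2, a scaffold protein gene, 1475066 bp from its start, and its heights were 28, 27.9, 21.2 and 19.8 in female 1, female 2, male 1 and male 2. Just inside the limit, the regions of Map3k6, Ccdc71l and Eif4a1 lay 1006, 1019 and 1031 bp from the nearest start. Just outside it, the regions of Tfap4, Ubr3 and Zfp668 lay 1000, 994 and 983 bp from it. Ccdc71l, just inside, had heights of 19, 18.9, 18.4 and 17.6, and Ubr3, just outside, had 11, 13.2, 9.19 and 16.9.

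Regions nearer to a start more often had a peak in all 4 libraries. Of the 292 regions between 1000 and 5000 bp, 7.19% had a peak in all 4 libraries and 19.9% lay on a RefSeq start. These shares were 5.35% and 12.9% of 542 regions between 5000 and 20000 bp, 2.73% and 8.81% of 806 between 20000 and 100000 bp, and 2.53% and 6.31% of 396 beyond that. The median heights of the nearest class were 31, 25.5, 19.1 and 11, and those of the farthest 21, 17.3, 12.7 and 5.88. Each library thus had a lower median in the farthest class. By library, the share with a peak fell from class to class in both males, from 27.1% to 16.7% in male 1 and from 19.9% to 9.85% in male 2. In the females it was not ordered, with 76.4%, 70.8%, 72.7% and 66.7% in female 1 and 51.4%, 51.7%, 47.3% and 47.5% in female 2. The classes were not compared by a test.

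Intragenic regions had a peak in fewer libraries than start regions, and the gap was larger in the males. The share of the 2036 regions with a peak was 71.6% and 49.1% in female 1 and female 2, and 20.4% and 12.7% in male 1 and male 2. Among start regions it was 86.2%, 70.1%, 56.1% and 42.8%. Intragenic regions were lower than start regions in 4 of 4 libraries, by 25.4 ± 9.38 percentage points (SD, n = 4; exact sign permutation test, p = 0.125, the smallest possible). The ratio of the intragenic to the start share was 0.831 and 0.700 in the females and 0.364 and 0.297 in the males. Females and males did not overlap in it, but with 2 libraries against 2 the exact permutation test cannot go below p = 0.333, which is the value found. Both classes hold regions through these same peak calls, more of them made in females, which favours higher shares in females. Of the 2036, 772 and 364 had a peak in female 1 or female 2 alone, and 96 and 81 in male 1 or male 2 alone.

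This difference moved with the number of peaks called in a library. When the same number of tallest peaks, 4049, was taken from each library, the shares of intragenic regions with a peak were 13.9%, 16.6%, 11.1% and 12.7%. The mean of the females then exceeded that of the males by 3.34 percentage points, against 43.7 points with all peaks. Intragenic regions made up 14.6% and 12.8% of the merged regions with a peak in the females and 7.75% and 6.41% in the males.

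**Figure D3:**
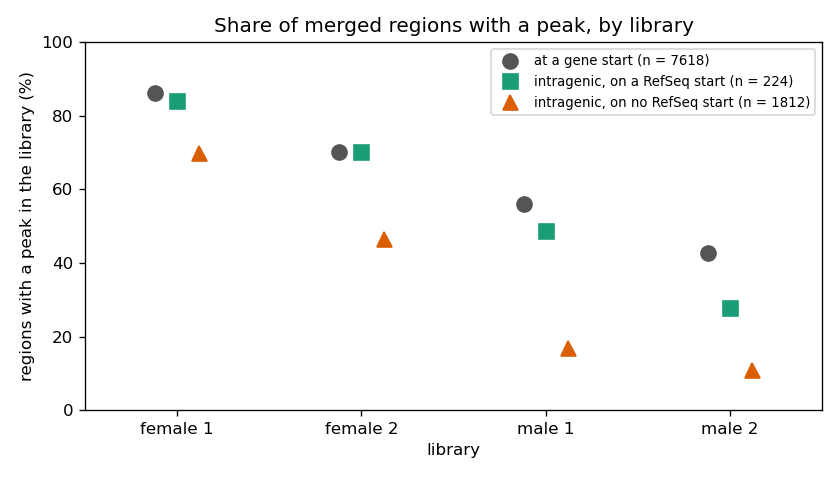
Percent of regions with a peak (vertical axis) in each library (horizontal axis) for start regions, intragenic regions on a RefSeq start and intragenic regions on none. Each point is 1 class in 1 library; intragenic regions on no RefSeq start go from 70.0% in female 1 to 10.9% in male 2.

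In median height, too, intragenic regions were below start regions in each of the 4 libraries. The height could be worked out in all 4 libraries for 734 of the 2036 intragenic regions (36.1%) and for 5272 of the 7618 start regions. The 734 lay closer to a start than the rest, with a median of 19227.5 against 34557.5 bp, and had similar shares of peaks (72.8%, 48.1%, 21.3% and 13.2%). The median height of intragenic regions was 26 and 21.4 in female 1 and female 2, and 14.8 and 8.81 in male 1 and male 2. Divided by the median of start regions it gave 0.634, 0.684, 0.568 and 0.571, a ratio that does not depend on how a library was scaled. The mean ratio was 0.659 ± 0.035 (SD, n = 2) in females and 0.570 ± 0.0028 in males (exact permutation test, two-sided, p = 0.333, the smallest possible). On the log2(height + 9) scale the sexes overlapped in the same contrast, with -0.51 and -0.41 in the females and -0.56 and -0.46 in the males (exact permutation test, p = 0.667).

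A region without a peak was rarely without coverage. In male 2, 637 of the 734 regions had no peak, and their median height was 8.08, against 16.9 for the 97 with one. In male 1 the 578 without a peak had a median of 13.4, and 3 of them were listed at 0. In female 1 and female 2 the medians without a peak were 17 and 15.6, with none at 0. These values cover the 734 regions with a known height and not the other intragenic regions.

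Among regions linked to the same gene the start region was usually the taller one. A start region here was one linked to the gene, so it could lie at the start of a neighbouring gene. Regions without a known height were not counted. There were 160 genes with a single intragenic and a single start region of known height among those linked to them. The medians were 26 and 45 in female 1 for the intragenic and the start region, and 21.8 and 34.1 in female 2. They were 15.2 and 26.2 in male 1 and 8.81 and 15.4 in male 2. The intragenic region was the taller of the pair in 38, 41, 37 and 27 of the 160 genes in this order of libraries.

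The pattern of peak calls over libraries was uneven. A single library accounted for 1313 regions (64.5%), of which 772 and 364 were in female 1 and female 2, and 96 and 81 in male 1 and male 2. Both females and neither male had a peak in 324 regions, and both males and neither female in 5. The other pairs of libraries gave 47 (female 1 and male 1), 26 (female 1 and male 2), 19 (female 2 and male 1) and 12 (female 2 and male 2). With the same number of tallest peaks per library, the 324 became 62 and the 5 became 8, while the mixed pairs gave 10, 11, 24 and 12. Leaving out a library moved the 324 to between 365 and 1096 and the 5 to between 7 and 101. These counts can only rise then, because the pattern has fewer conditions to meet.

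The tallest of the 324 were in Pknox1, Klf10, Sin3a, Maml3, Ctif and Dgat2. Pknox1, a homeobox transcription factor gene, had summits of 107 and 88.8 in the females. Klf10, a TGFβ-induced Krüppel-like factor gene, had heights of 96 and 53.4 in the females and 33.9 and 21.3 in the males, although no peak was called in either male. Dgat2, the diacylglycerol acyltransferase that makes triglyceride, had summits of 67 and 55.1 at a region 27225 bp inside the gene (chr7:99155347-99155520). Of the 324, 114 had known heights, with medians of 34 and 27.9 in the females and 18.4 and 10.3 in the males; the regions were chosen by calls in the females and none in the males, which favours that direction.

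Peaks called in both males only did not go with higher coverage in males where the heights were known. At Cntnap5b, a cell adhesion gene of the neurexin family, the heights were 60 and 51 in the females, which had no peak, and 43.8 and 27.9 in the males, which had one (chr1:100180166-100180355). Of the 3 such regions with known heights, 2 had both males below both females and none had both above. Dlg4, the gene of a synaptic scaffold protein, had summits of 24 and 23.5 in the males, and its height in the females was not known.

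Between the sexes, 13 of the 734 intragenic regions (1.77%) were called lower in males and none higher by limma at an adjusted p under 0.05. Among all 6785 regions, 52 (0.766%) were called lower and 0 (0%) higher. Regions entered the set through a peak in any library. A peak in female 1 or female 2 alone brought in 37.9% and 17.9% of intragenic regions, against 15.5% and 5.21% of start regions. For male 1 or male 2 alone the shares were 4.72% and 3.98%, against 1.96% and 4.17%. Such entry favours calls lower in males. At an unadjusted p under 0.05, 291 intragenic regions (39.6%) were lower, against 29% of all regions. At that limit 1 intragenic region (0.136%) was higher, and it was the only such region among all 6785 (0.0147%). The log2 difference was above 0 in 25 (3.41%), against 4.55% of all regions. In 538 of the 734 (73.3%) both males lay below both females, against 71.8% of all regions, and in 4 (0.545%) both lay above, against 0.59%. The median log2 difference, male minus female, was -0.67 for intragenic regions, -0.63 for start regions and -0.63 for all. It was -0.66 for intragenic regions on a RefSeq start and -0.67 for the others. Relative to all regions the intragenic median was therefore -0.04, and no test of that difference was made. These calls depended on the scaling and on single libraries. After each library was centred on its median over all regions, no region was called (limma, smallest adjusted p = 0.589), and at an unadjusted p under 0.05 the intragenic counts were 38 lower (5.18%) and 27 higher (3.68%), against 3.82% and 4.48% of all regions. Without male 2 the count of 13 went to 0, without male 1 to 354, without female 2 to 22 and without female 1 to 9. limma took the spread from regions of like height rather than from each region's own libraries. Of the 734, 318 lay above the 25th percentile of mean height over all tested regions, and 1 of the 13 called was among them.

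**Figure D4:**
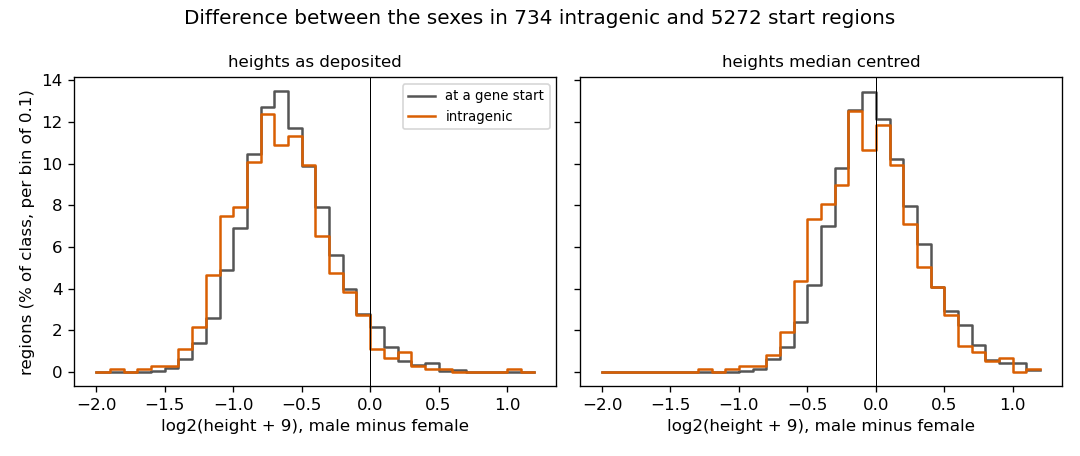
Distribution of the difference in log2(height + 9), male minus female (horizontal axis), as the percent of regions per bin of 0.1 (vertical axis), for 734 intragenic and 5272 start regions, with heights as deposited (left) and with each library centred on its median (right). As deposited, the medians are -0.67 and -0.63; the curves of both classes overlap over most of their range.

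Of the 13 called regions, none lay on a RefSeq start, against 12.5% of the 734 tested, and 10 were over 5000 bp from the nearest start, against 78.1% of the 734. In all 13 both males lay below both females. None of the 13 had a peak in a male, so all entered the set through a peak in 1 or both females, which favours that direction. Most of them had a peak in 1 library only. The largest difference was in Rapgefl1, a gene related to the Rap guanine nucleotide exchange factors, 2831 bp from its start (chr11:98839513-98839633), and the region is also linked to Casc3. Its heights were 35 and 24.7 in female 1 and female 2, and 2.12 and 0.734 in male 1 and male 2, the last being 1 step of that library's scale. A peak was called there in female 1 only. The log2 difference was -1.89 ± 0.36 (SE; limma adjusted p = 9.7e-04), and -1.27 after centring, when it was not called.

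Slc28a3 encodes a concentrative nucleoside transporter. Its region had heights of 34 and 35.3 in the females and 7.07 and 5.14 in the males (chr13:58593323-58593439; log2 difference -1.53, limma adjusted p = 0.0296). Epb4.1l1 and Epb4.1l4b encode FERM-domain proteins of the protein 4.1 family, which link membrane proteins to the cytoskeleton. The Epb4.1l1 region had 26 and 18.9 in the females and 2.12 and 2.20 in the males. The Epb4.1l4b region, the tallest of the 13, had 50 and 31.2 in the females and 11.3 and 6.61 in the males. In both genes the lowest female was more than 2 times the highest male.

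St14 encodes matriptase, a membrane serine protease of epithelia. Its region 10967 bp from the start had heights of 22 and 15.6 in the females and 2.12 and 1.47 in the males (chr9:31120762-31120854; log2 difference -1.36, limma adjusted p = 0.0333). Of the list of 31 mammary epithelium markers, 10 genes had a row in the gene table, 5 of them held 6 intragenic regions, and 1 of the 3 regions tested was called. The other tested regions were in Erbb3, an epidermal growth factor receptor family member also known from Schwann cells, with 22, 26.3, 5.66 and 3.67 (limma adjusted p = 0.0539), and in Trp63, a basal epithelial factor, with 11, 11.5, 14.1 and 5.14. Summed over the 10 marker genes, the height was 316, 236, 160 and 76.7 in female 1, female 2, male 1 and male 2. Per 1000 of the summed height of all genes it was 0.644, 0.606, 0.528 and 0.381, with both males below both females, as in 11 of the 16 gene lists. Both males lay below both females in 8 of the 10 genes, against 76.4% of all 11993 genes of the table. The defining markers Epcam, Krt8, Krt18, Krt5 and Krt14 had no row in the table. The part of mammary epithelium in these results was not tested.

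The other called regions had heights of 12.3 to 34.5 in the females and 0 to 6.61 in the males. They lay in Scmh1, a Polycomb group gene, Dnajc18, a DnaJ family cochaperone gene, Tbcd, a tubulin folding cofactor gene, Sgsm3, a modulator of small GTPases, Epn3, an endocytic adaptor of the epsin family, Pebp4, of the phosphatidylethanolamine-binding protein family, 5330417C22Rik and Gm10432. Epn3 was listed at 0 in male 1 and had 6.61 in male 2. Pebp4 had 0.707 in male 1 and 2.20 in male 2. The largest difference with males lower that was not called was in Atp8b2, a phospholipid flippase gene, where the region lay on a RefSeq start and the heights were 38, 42.7, 21.9 and 2.94 (log2 difference -1.36, limma adjusted p = 0.0671).

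In the other direction the largest difference was in Galnt13, which encodes an enzyme that begins O-glycosylation, 453853 bp from its start (chr2:54890187-54890397). The heights were 5 and 5.75 in the females and 16.3 and 27.2 in the males, which did not overlap. The log2 difference was 1.07 and was not called (limma adjusted p = 0.0963).

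**Figure D5:**
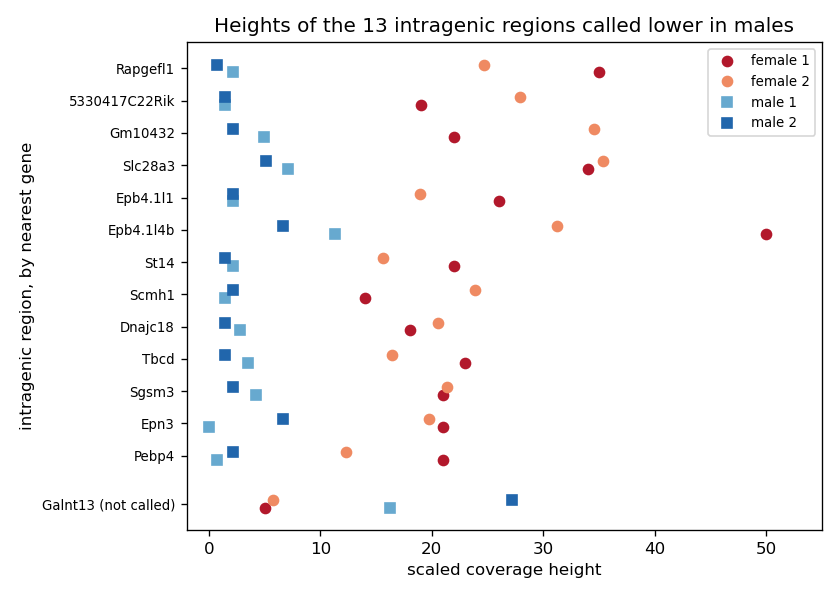
Scaled coverage height (horizontal axis) in each library (circles for females, squares for males) of the 13 intragenic regions called lower in males and of the Galnt13 region, which was not called, by nearest gene (vertical axis). In all 13 both males lie below both females; the highest male value is 11.3, in Epb4.1l4b.

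No region of an adipocyte identity gene was called. That list had 23 intragenic regions in 11 genes, 3 of them tested, with a median log2 difference of -0.63, equal to that of all regions. Pparg, the master regulator of adipocyte differentiation, had heights of 28, 20.6, 14.8 and 12.5 in female 1, female 2, male 1 and male 2 at a region 101883 bp from its start (chr6:115463041-115463298; limma adjusted p = 0.275). Ebf2, a factor of brown and beige adipocytes, had 42, 29.6, 18.4 and 13.2, and the fatty acid transporter Cd36 had 40, 17.3, 17.7 and 11. Female 2 and male 1 were within 1 step of each other at Cd36. Peaks were called in 15, 16, 9 and 5 of the 23 regions in the same order of libraries, and 2 regions, those of Nfia and Rxra described above, had a peak in all 4.

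Genes of lipid synthesis and breakdown had fewer. The list of lipogenesis and triglyceride synthesis had 8 intragenic regions, 1 each in Acaca, Acacb, Agpat9, Dgat2, Elovl6, Insig2, Mogat1 and Srebf1, and none of the 5 tested was called. Acaca, which makes malonyl-CoA for fatty acid synthesis, had 21, 18.9, 15.6 and 10.3, and Elovl6, a fatty acid elongase, had 28, 18.9, 19.1 and 14.7. Their peaks numbered 6, 7, 2 and 0 of the 8. The list of lipolysis and cyclic nucleotide signalling had 14 regions, with peaks in 12, 6, 1 and 1, and none of the 2 tested was called. Adcy3, an adenylyl cyclase of that list, had 41, 29.6, 21.2 and 15.4, and the phosphodiesterase Pde3a had 24, 16.4, 14.8 and 8.08.

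Regions in genes of hormone response, the clock and transcription had no called region either. The list of insulin signalling and glucose uptake had 16 regions, 1 of them tested, that of the kinase Akt1, with 39, 27.9, 21.2 and 8.08. The list of steroid receptors and steroid metabolism had 12 regions, and the circadian clock list had 15, among them the 5 of Rora. Nr1d1, the clock repressor REV-ERBα, had 60, 45.2, 32.5 and 18.4 at a region shared with Thra. The list of nuclear receptors and fat cell transcription factors had 28 regions in 17 genes, with a median of -0.72 over the 8 tested. Its lowest p was at Esrrb, an orphan nuclear receptor gene, with 17 and 14.8 in the females and 2.12 and 3.67 in the males (limma adjusted p = 0.0916). The thermogenic list had 3 regions, 2 of them in Prdm16.

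Regions in marker genes of the other cells of fat were few. The extracellular matrix list had 15 in 11 genes, with a median of -0.82 over 6 tested and none called. Col4a1, a basement membrane collagen, had 33 and 26.3 in the females and 9.19 and 7.34 in the males (limma adjusted p = 0.0948), and Timp3, an inhibitor of matrix metalloproteinases, had 37, 55.1, 14.8 and 16.9. The endothelial and mural list had 6 regions, all tested, with a median of -0.56. Macrophage and lymphocyte lists had 3 and 6 regions, progenitor markers 2, Schwann cell and neuron markers 2, and skeletal muscle markers 0. Of the 6 lymphocyte regions, 5 were those of Rora, which is also in the circadian clock list. The Erbb3 region counts in both the mammary and the Schwann cell list. Cd9, a tetraspanin of myeloid and progenitor cells, had 22, 18.1, 7.07 and 2.20, and Cd2, an adhesion receptor of T cells, had 13, 10.7, 7.78 and 13.2, so the sexes overlapped there.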

How the data were processed

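Per the labels' protocols, nuclei from frozen fat were treated with Tn5 and amplified. The submitters' processing notes name BWA, MACS2 2.1.0 and mm10. Not given in the sources used here are the BWA version, duplicate removal and any Tn5 read shift. The authors called peaks per library and merged them, per the file headers. The deposited heights are a signal, tag coverage at the summit, averaged over the regions of a gene. They are whole multiples (within 0.1 of a step) of 1, 0.822, 0.707 and 0.734 in female 1, female 2, male 1 and male 2, so the authors had scaled each library by a factor of unstated basis. They are coverage, not reads, so no interval was given. The deposited count of merged regions per gene was used to resolve means.

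A region's height was the deposited value of a gene with that region alone, the library's own summit where its peak covered the whole region (identical within 0.01 in 100% of cases), or what remained of a gene's mean times its number of regions. Sexes were compared with limma 3.58.1 (R 4.3.3, trend, no replicate block) on log2(height + 9) over 6785 regions above 0 in at least 2 libraries, with Benjamini-Hochberg adjustment. This scale understates changes of low regions. The fit was tested on simulated data with 200 changed regions and no shift of all regions between the sexes, unlike these data. The simulated spread also left out shifts of whole libraries within a sex, which these data have. In that setting the fit recovered 82% to 100% of changes of 1 or 2 on the log2 scale. These shares do not carry over to these data, in which Col4a1 at -1.16 and Galnt13 at 1.07 were not called. A median of 9 unchanged regions per run were called. Single values per library were compared by exact permutation tests, two-sided. Overlaps were at least 1 bp. Motifs and start windows came from RefSeq (GRCm38.p6). Alternatives covered pseudocount, filter, scaling, block, variance, height source, distance, peak cutoff and libraries; positions are mm10, counted from 1.

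Named by rule were the largest differences, the tallest regions overall and in each sex-specific pattern, genes with most regions, up to 3 per gene list, and extremes of distance and width; predicted genes were left out there. Regions shared by 4 libraries, and genes named beside counts, were added after their values were seen. The members, the 16 lists and the tests were chosen with earlier results of these data known. 1 gene that the rule names is not reported here. Symbols are those of the deposited table. Python 3.11.15, pandas 2.3.3, numpy 2.4.6, scipy 1.17.1 and matplotlib 3.10.9 were used.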

Additional observations from a re-analysis of the deposited data

How the results depend on the processing

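The count of 13 intragenic regions lower in males (limma) was 0 with median centring, with quantile normalization, with regions above the 25th percentile of mean height only and with centring without male 2, an alternative chosen after seeing the data. It was 8 with a pseudocount of 36, 10 with a pseudocount of 1 and 326 with summits alone, where 5 were higher. The last alternative sets every region without a peak to 0. Leaving out a library gave 0 to 354 lower and 0 to 1 higher, with the lone library of a sex assumed to vary like the others. With the replicate number as a block, 368 were lower and 1 higher. The labels do not say whether the numbers in the titles pair the samples. The deviations of same-numbered libraries had a correlation of 0.0035. A correlation over regions does not show a shift shared by all regions, so it does not settle the pairing. The cause of these changes was not tested.

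The median log2 difference of -0.67 was -0.056 with centring, -0.062 with centring without male 2, -0.075 with quantile normalization, -0.99 with a pseudocount of 1, -0.32 with 36, -1.64 with summits alone and -0.89 to -0.43 without a library. The excess of the female over the male share of regions with a peak, 43.7 points, was 25.8 with peaks above each library's 25th percentile and 3.34 with equal numbers of peaks. The count with peaks in both females only, 324, was 62 with equal numbers and 365 to 1096 without a library. That in both males only, 5, was 1 above the 25th percentile, 8 with equal numbers and 7 to 101 without a library. Without a library both counts can only rise, because the pattern has fewer conditions to meet. The height ratio of 0.614 (mean of 4 libraries) was 0.578 beyond 5000 bp and 0.762 with summits of called peaks. A distance limit of 5000 bp left 10 calls.

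Single regions that were not called changed sign as follows. With median centring, log2 differences were Pparg 0.067, Insig2 0.019, Mogat1 0.071, Pde3a 0.092, Ncoa2 0.16, Flt1 0.058, Cd2 0.51 and Trp63 0.45. With quantile normalization they were Pparg 0.045, Insig2 0.0080, Mogat1 0.051, Pde3a 0.067, Ncoa2 0.19, Flt1 0.065, Cd2 0.51 and Trp63 0.37. With centring without male 2 they were Srebf1 0.17, Insig2 0.12, Pde3a 0.086, Hsd11b1 0.13, Ncoa2 0.034, Mmrn2 0.10, Cd2 0.056 and Trp63 0.56. Leaving out a library gave Cd2 -0.31 to 0.094 and Trp63 -0.52 to 0.19. The intragenic median minus that of start regions was 0.029 with a pseudocount of 36. No called region changed sign in any alternative run; the summit, single-region and percentile alternatives gave no value for some regions, and the fit on the gene table was not run for single regions. Depth limits what can be read from low heights: a value of 1 to 3 steps is a few tags.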
